A study of Mus musculus with 6 samples.

Results

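Osteogenic differentiation genes were examined in bone marrow-derived mesenchymal stromal cells (MSCs), the plastic-adherent stromal cells from which osteoblasts can be derived in culture. The group holds 10 genes chosen by symbol (Runx2, Sp7, Dlx5, Msx2, Alpl, Phex, Spp1, Ibsp, Bglap and Tnfsf11), all present among the 23420 gene rows of the count table, and 9 of them had at least 1 read. RNA-seq was performed on 6 libraries, of which 3 carry the label Ctl MSC and 3 the label MSC-TPr. Both groups came from femurs of female C57BL/6 mice aged 6 to 8 weeks and were transduced with the AP2 retroviral construct, which carries eGFP. In Ctl MSC the construct was otherwise empty. In MSC-TPr it also coded for the thymoproteasome (TPr) subunits β1i, β2i and β5t, which form the proteasome of cortical thymic epithelial cells. The cells were grown in AMEM with serum, and no osteogenic induction is given in the labels or methods. Neither source says whether the libraries of a label came from separate mice, cultures or transductions, so p-values measure only the spread between these libraries.

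In bone formation, Runx2 commits stromal progenitors to the osteoblast lineage and Sp7 (osterix) acts after it, while the homeodomain factors Dlx5 and Msx2 act around these steps. Maturing osteoblasts make Alpl, the alkaline phosphatase that frees phosphate for mineral, followed by matrix proteins such as osteopontin (Spp1), bone sialoprotein (Ibsp) and osteocalcin (Bglap). Phex is an endopeptidase of osteoblasts and osteocytes, and Tnfsf11 (RANKL) is the signal by which these cells drive osteoclast formation. Ibsp and Bglap mark late, matrix-mineralizing osteoblasts, whereas Runx2, Alpl and Spp1 are also found earlier.

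Levels of the members ranged from abundant to undetected. Spp1 was abundant, Runx2 and Msx2 had a middle mean level per exon length, and Phex, Alpl and Dlx5 were lower. Sp7, Ibsp, Bglap and, outside 1 library, Tnfsf11 had at most 4 reads per library. No member passed the test between the labels over all 6 libraries. Over the libraries numbered 2 and 3 in each label, Alpl, Msx2, Spp1 and Dlx5 were higher in MSC-TPr, but in the libraries numbered 1 these 4 genes were lower in MSC-TPr. Among the libraries numbered 2 and 3, the label cannot be told apart from the level of cell division genes.

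The reads assigned to genes numbered 16158756 to 22158887 per library. Values are given as CPM, counts per 1000000 reads of the library size scaled by edgeR's TMM method, and 3 reads, taken as the smallest detectable amount, correspond to 0.139 to 0.181 CPM, a limit that covers counting error only. The libraries did not group by label alone. Ctl MSC 1, MSC-TPr 2 and MSC-TPr 3 carried 1684, 1523 and 1611 CPM summed over 12 cell division genes, with Top2a the highest, while Ctl MSC 2, Ctl MSC 3 and MSC-TPr 1 carried 174, 167 and 171 CPM. These sets of libraries also lay on opposite sides of the first principal component, which held 58.5% of the variance. The second component, which held 28.3%, separated the labels. Ctl MSC 1, 2 and 3 lay at −48.86, −20.43 and −19.59 on it, and MSC-TPr 1, 2 and 3 at 49.1, 24.21 and 15.58. The transduced genes did not set the labels apart, as Psmb9, Psmb10 and Psmb11 (1 to 6 reads per library) each had overlapping values. Psmb9 and Psmb10 instead followed the same sets of libraries. Psmb9 measured 3.38, 1.24 and 1.21 CPM in Ctl MSC 1, MSC-TPr 2 and MSC-TPr 3. It measured 0.801, 0.827 and 0.554 CPM in Ctl MSC 2, Ctl MSC 3 and MSC-TPr 1. In the same order, Psmb10 measured 27.8, 17.3 and 15.2 CPM against 8.81, 8.38 and 8.97 CPM. Each direction is therefore a direction between library labels, and results are given over all 6 libraries and without the libraries numbered 1. Without the libraries numbered 1, the label and the level of the cell division genes coincide. A rise or fall in that fit cannot be assigned to one or the other. Of 9 MSC surface genes, 8 had at least 1 CPM in every library, led by Itgb1, and the list summed to 2046 to 3171 CPM over the Ctl MSC libraries and to 1557 to 2755 CPM in those labelled MSC-TPr. Thy1 (CD90) was the exception, with at most 0.0604 CPM. The study reported CD90 protein on Ctl MSCs by flow cytometry, and this difference between RNA and protein was not examined. The haematopoietic and endothelial genes Ptprc (CD45) and Pecam1 (CD31) reached at most 0.0928 and 0.221 CPM.

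The members were ordered by level per exon length, as CPM divided by kb of exons. Spp1 stood first with 264 to 1037 CPM per kb, rank 56 of 16632 genes with a read and a length. Runx2 followed at 4.47 to 6.65, Msx2 at 1.67 to 6.11, Alpl at 0.123 to 3.002, Phex at 0.343 to 1.21 and Dlx5 at 0.245 to 1.09 CPM per kb. The ranges of each neighbouring pair from Runx2 down to Dlx5 overlapped, so their order was not resolved beyond the spread between libraries, whereas the lowest Spp1 value lay above the highest Runx2 value. Tnfsf11 lay between 0 and 0.459 CPM per kb. Exon lengths are from GENCODE M21, which may differ from the annotation used for counting.

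**Figure D1:**
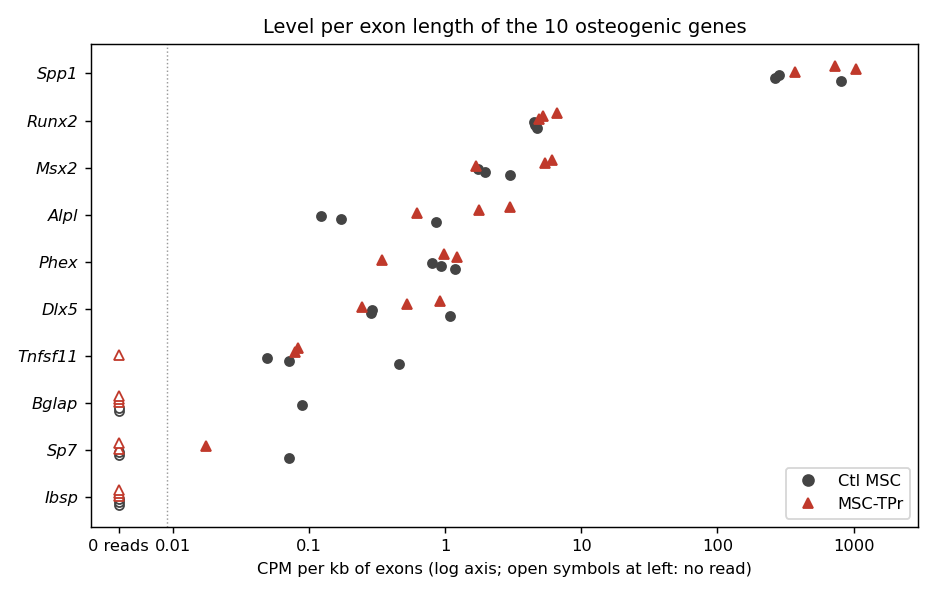
Level of each of the 10 genes in each library, as CPM per kb of exons on a log axis, with circles for Ctl MSC, triangles for MSC-TPr and open symbols at the left for libraries with no read. Spp1 lies between 264 and 1037 CPM per kb in all 6 libraries, Runx2 between 4.47 and 6.65, and Ibsp has no read in any.

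Promoter sequences from RefSeq (GRCm38.p6) were available for 8 of the 10 members. The 250 bases before the start are shown for Runx2 and for the matrix genes Spp1, Ibsp and Bglap, since these genes span the range from the highest level to none. Capitals mark ACCACA, the letters of the core RUNX motif, searched on both strands (TGTGGT on the other).
Runx2, chr17:44814628-44814877, minus strand: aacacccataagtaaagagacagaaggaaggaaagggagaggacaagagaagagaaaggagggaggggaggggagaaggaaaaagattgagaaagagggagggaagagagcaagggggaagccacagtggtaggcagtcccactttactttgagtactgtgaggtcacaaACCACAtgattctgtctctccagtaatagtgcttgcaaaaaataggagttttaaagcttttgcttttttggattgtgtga
Spp1, chr5:104434861-104435110, plus strand: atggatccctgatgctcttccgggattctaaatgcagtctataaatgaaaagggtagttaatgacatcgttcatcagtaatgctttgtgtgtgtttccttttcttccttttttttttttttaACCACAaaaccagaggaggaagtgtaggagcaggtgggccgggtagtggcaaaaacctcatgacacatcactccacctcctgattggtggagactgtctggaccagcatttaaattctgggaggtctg
Ibsp, chr5:104299037-104299286, plus strand: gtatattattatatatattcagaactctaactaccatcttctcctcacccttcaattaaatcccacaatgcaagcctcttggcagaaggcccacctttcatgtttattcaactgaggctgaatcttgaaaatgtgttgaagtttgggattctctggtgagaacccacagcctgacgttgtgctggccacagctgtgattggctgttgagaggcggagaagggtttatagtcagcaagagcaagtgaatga
Bglap, chr3:88384467-88384716, minus strand: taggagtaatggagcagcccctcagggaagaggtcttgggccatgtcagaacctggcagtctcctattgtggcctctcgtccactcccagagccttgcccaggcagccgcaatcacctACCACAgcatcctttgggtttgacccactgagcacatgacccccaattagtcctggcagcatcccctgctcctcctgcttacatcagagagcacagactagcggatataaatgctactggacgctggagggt
The motif begins at position −80 before the RefSeq start of Runx2, −128 before Spp1 and −132 before Bglap, with −1 the base next to the start. Some RefSeq starts differ from the gene coordinates given below, which are from GENCODE M21. The windows of Runx2 (with its motif), Ibsp and Phex lie partly inside those coordinates. The window of Msx2 and those of the second starts of Alpl and Spp1 lie wholly inside them. It stood in 3 of the 10 windows of the members (Alpl and Spp1 have 2 starts each), and in 14.0% of all 32851 RefSeq windows of this length. Spp1 and Bglap thus both carry these letters, at the top and near the bottom of the levels. The homeodomain letters TAATTA stood in 2 of the 10 windows (4.84% of all windows), TAATTG in 3 (7.17%) and the SP/KLF letters GGGCGG in 2 (32.7%), both strands searched, with 2 overlapping copies of GGGCGG before Alpl. TAATTA was found before Msx2, at −187, and before the second start of Spp1, at −122. A match describes these letters only and names no bound site.

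The regulators were examined first. Runx2, the Runt-domain factor that commits cells to the osteoblast lineage, lies on chromosome 17 of mm10 from 44495987 to 44814797, and its exons overlap the antisense gene Runx2os1. It measured 41.5, 40.5 and 39.5 CPM in Ctl MSC 1, 2 and 3. It measured 43.1, 46.1 and 58.8 CPM in MSC-TPr 1, 2 and 3. Every library labelled MSC-TPr lay above all libraries labelled Ctl MSC, although with upper quartile scaling they overlapped. Runx2 was the only member without overlap among the 6 tested, beside 22.6% of all genes tested in either direction and 10.6% with the MSC-TPr libraries higher. The group means were 40.5 ± 1.01 and 49.3 ± 8.31 CPM (SD, n = 3 each), a log2 ratio (MSC-TPr over Ctl MSC) of 0.28 (SE 0.168, edgeR adjusted p = 0.482) that did not pass the test. Without the libraries numbered 1 it was 0.39 (SE 0.150, edgeR adjusted p = 0.0747). Runx2 was also the steadiest of the tested members, with a highest value 1.49-fold above the lowest.

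Sp7, the zinc-finger factor that acts after Runx2, lies on chromosome 15 from 102356606 to 102367182. It had 4, 0 and 0 reads in Ctl MSC 1, 2 and 3, against 0, 1 and 0 reads for MSC-TPr 1, 2 and 3. Only Ctl MSC 1 exceeded 3 reads, and Sp7 did not pass edgeR's filter. Its 5 reads over all 6 libraries correspond to 0.0455 CPM (95% exact Poisson interval 0.0148 to 0.106).

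Dlx5, a homeodomain activator of osteoblast genes, lies on chromosome 6 from 6877805 to 6882085. It measured 2.48, 0.641 and 0.662 CPM in Ctl MSC 1, 2 and 3, from 41, 12 and 12 reads. It measured 0.554, 1.18 and 2.09 CPM in MSC-TPr 1, 2 and 3, from 10, 20 and 45 reads. Ctl MSC 1 held the highest value and MSC-TPr 1 the lowest, so the groups overlapped across their whole range. The log2 fold change was 0.03 over all 6 libraries (SE 0.717, edgeR adjusted p = 0.989), and −0.03 with upper quartile scaling. Without the libraries numbered 1 it was 1.35 (SE 0.401, edgeR adjusted p = 0.0366), a call that DESeq2 did not make on the same 4 libraries (adjusted p = 0.129). Its neighbour Dlx6, within the same 18.75 kb, had 5 to 7 reads in every library.

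Msx2, a homeodomain factor of early osteogenic and craniofacial cells, lies on chromosome 13 from 53466884 to 53473074. It measured 9.85, 6.46 and 5.68 CPM in Ctl MSC 1, 2 and 3. It measured 5.48, 17.7 and 20.0 CPM in MSC-TPr 1, 2 and 3. MSC-TPr 2 and 3 were the highest and MSC-TPr 1 the lowest of the 6. The group means of 7.33 ± 2.21 and 14.4 ± 7.83 CPM (SD, n = 3 each) gave a log2 ratio of 0.98 (SE 0.502, edgeR adjusted p = 0.419). In the libraries numbered 2 and 3, Msx2 rose from 6.07 ± 0.552 to 18.9 ± 1.62 CPM (SD, n = 2 each), a log2 ratio of 1.64 (SE 0.165, edgeR adjusted p = 0.000973).

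**Figure D2:**
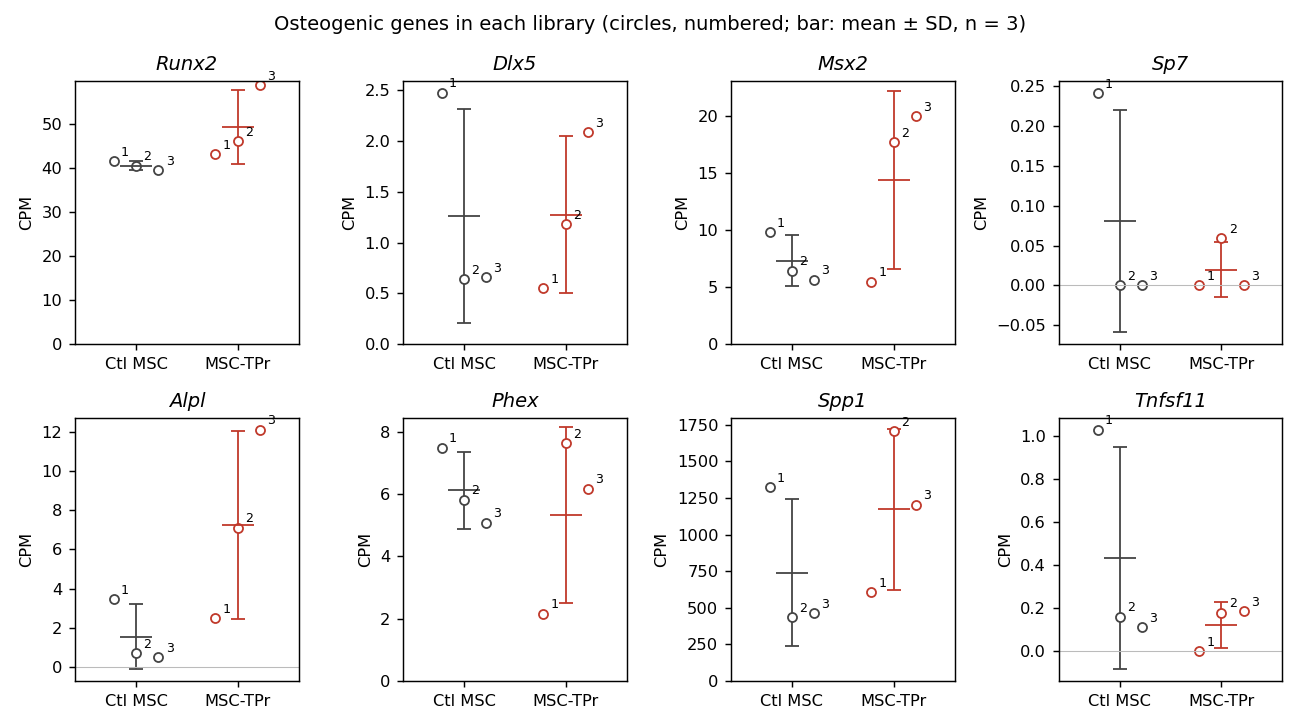
CPM of the 8 members with at least 4 reads in some library, on linear axes, with each library as a numbered circle and the mean ± SD (n = 3) as a bar with caps. Runx2 is higher in all MSC-TPr libraries than in all Ctl MSC libraries, while for Dlx5, Msx2, Phex, Spp1 and Tnfsf11 Ctl MSC 1 lies above MSC-TPr 1, as it does for Alpl at 3.44 against 2.49 CPM.

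Among the enzymes of mineralization, Alpl differed most between libraries. Alpl, tissue-nonspecific alkaline phosphatase and the usual early marker of osteoblasts, lies on chromosome 4 from 137741733 to 137796384. It measured 3.44, 0.694 and 0.496 CPM in Ctl MSC 1, 2 and 3. It measured 2.49, 7.10 and 12.1 CPM in MSC-TPr 1, 2 and 3. The highest library was 24.4-fold above the lowest, the widest range of the tested members, and the groups overlapped only because Ctl MSC 1 lay above MSC-TPr 1. The means of 1.54 ± 1.65 and 7.23 ± 4.81 CPM (SD, n = 3 each) gave a log2 ratio of 2.23 (SE 0.887, edgeR adjusted p = 0.310), and DESeq2 gave 2.24 (adjusted p = 0.0947). Without the libraries numbered 1, Alpl rose from 0.595 ± 0.140 to 9.60 ± 3.54 CPM (SD, n = 2 each), a log2 ratio of 4.0 (SE 0.392, edgeR adjusted p = 0.000902). With the mean log2 CPM of the cell division genes as a covariate over all 6 libraries, it rose by 1.71 (SE 0.312, edgeR adjusted p = 0.0145), and 12.1% of all genes passed in that fit.

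Among the genes most like Alpl over the 6 libraries were Zdhhc2, a palmitoyltransferase, and Eno3, the muscle enolase, with root mean square differences of centred log2 CPM of 0.29 and 0.36. Zdhhc2 measured 3.93, 1.39 and 0.993 CPM in Ctl MSC 1, 2 and 3, against 4.65, 14.3 and 17.1 CPM for MSC-TPr 1, 2 and 3. Both genes were, like Alpl, lowest in Ctl MSC 2 and 3 and highest in MSC-TPr 2 and 3.

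Phex, the endopeptidase whose loss causes phosphate wasting, lies on chromosome X from 157162075 to 157415312. It measured 7.49, 5.82 and 5.07 CPM in Ctl MSC 1, 2 and 3. It measured 2.16, 7.63 and 6.17 CPM in MSC-TPr 1, 2 and 3. MSC-TPr 1 stood below the other libraries, which lay within 5.07 to 7.63 CPM. The log2 fold change was −0.20 over all 6 libraries (SE 0.468, edgeR adjusted p = 0.875) and 0.34 without the libraries numbered 1 (SE 0.202, edgeR adjusted p = 0.214).

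The matrix proteins ranged from among the most abundant transcripts to none. Spp1, the phosphoprotein osteopontin, lies on chromosome 5 from 104435118 to 104441050, and 5.85% of the 100-base windows of its transcripts also belong to Gm42793, an overlapping same-strand gene, which leaves its count slightly uncertain. It measured 1324, 435 and 464 CPM in Ctl MSC 1, 2 and 3. It measured 608, 1709 and 1205 CPM in MSC-TPr 1, 2 and 3. Ctl MSC 1 lay with MSC-TPr 2 and 3 at 1205 CPM or more, and MSC-TPr 1 lay with Ctl MSC 2 and 3 at 608 CPM or less, as the cell division genes did, whose part in this order was examined only through a covariate. The means of 741 ± 505 and 1174 ± 551 CPM (SD, n = 3 each) gave a log2 ratio of 0.66 (SE 0.556, edgeR adjusted p = 0.623). In libraries 2 and 3 of each label, Spp1 rose from 450 ± 20.2 to 1457 ± 356 CPM (SD, n = 2 each), a log2 ratio of 1.70 (SE 0.193, edgeR adjusted p = 0.00149). With the cell division covariate over all 6 libraries the log2 fold change was 0.28 (SE 0.172, edgeR adjusted p = 0.291).

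Spp1 is also made by macrophages, and in bulk RNA a change in the number of cells of a type cannot be told apart from a change in RNA per cell. Of 10 macrophage and leukocyte genes, 1 had at least 1 CPM in every library, Cd14 at 3.27 to 13.2 CPM, and Cd68, a lysosomal protein abundant in macrophages, ranged from 0.789 to 14.2 CPM. Adgre1 had no read, and Ptprc and Itgam reached at most 0.0928 and 0.0534 CPM. The list summed to 11.2 to 14.6 CPM over the Ctl MSC libraries and 13.0 to 17.6 CPM over those of MSC-TPr. These sums come mostly from Cd14 and Cd68, which did not peak in the same library, and their relation to Spp1 was not tested.

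Ibsp, bone sialoprotein, lies on chromosome 5 from 104299171 to 104311469 and had 0 reads in all 6 libraries, which by the limit of 3 reads allows up to 0.0273 CPM over the pooled libraries. Spp1 and Ibsp belong to a cluster of tooth and bone matrix genes that spans 270.34 kb, with Dspp, Dmp1 and Mepe. Against 104298 reads of Spp1 over the 6 libraries, Dmp1 had 24 reads, Mepe 1 and Dspp and Ibsp 0. The Dmp1 reads were 3 in Ctl MSC 1, 9 in MSC-TPr 2 and 12 in MSC-TPr 3, with 0 in the other libraries.

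Bglap, osteocalcin, lies on chromosome 3 from 88383501 to 88384464 beside its copies Bglap2 and Bglap3, within 15.85 kb. Its single read came from Ctl MSC 3. Bglap2 had 6, 8 and 4 reads in Ctl MSC 2, Ctl MSC 3 and MSC-TPr 1 and 0 in the others, and Bglap3 had 1 read each in Ctl MSC 2 and MSC-TPr 1. The count of Bglap is uncertain, since 38.7% of the 100-base windows of its transcripts are shared with Bglap2 or Bglap3, and reads aligned to several places were not counted on genes. No Bglap or Bglap2 read was found in the libraries with the most Alpl, MSC-TPr 2 and 3.

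Tnfsf11, the osteoclast signal RANKL, lies on chromosome 14 from 78277445 to 78308043. It had 17, 3 and 2 reads in Ctl MSC 1, 2 and 3, against 0, 3 and 4 reads for MSC-TPr 1, 2 and 3. Ctl MSC 1 stood apart at 1.03 CPM (95% exact Poisson interval 0.598 to 1.64), above the upper bounds of the other libraries, which were at most 0.519 CPM. Tnfsf11 did not pass edgeR's filter, and DESeq2 gave a log2 ratio of −1.81 over all 6 libraries (SE 1.40, DESeq2 adjusted p = 0.574). T cells also make it, and of 5 T cell genes Cd3e and Cd3g had no read, while the list summed to 0.785 to 4.58 CPM over the Ctl MSC libraries and 2.60 to 9.36 CPM over those of MSC-TPr, nearly all from Lck.

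Across the members, 0 of the 6 tested by edgeR after its filter on low counts passed over all 6 libraries, where 0.426% of all genes passed. Passing meant an adjusted p under 0.05 and an absolute log2 ratio of 0.5 or more. Of the 6, 1, Alpl, had an unadjusted edgeR p under 0.05, as did 1801 of the 11974 genes tested. DESeq2, run without that filter, called 0 of 9 members, against 4.06% of all genes. On the libraries numbered 2 and 3, edgeR called 4 of 6, all higher in MSC-TPr (Dlx5, Msx2, Alpl and Spp1), where 40.0% of all genes passed in either direction and 20.6% were higher. DESeq2 called 3 of the 9 members it tested (Msx2, Alpl and Spp1), where 27.9% of 16379 genes passed. The groups of these 4 libraries did not overlap in any of the 6 members, nor in 77.5% of all genes tested. The members that edgeR tested had to reach a minimum count, and these 6 were chosen by that filter. In 5 of the 6 (Runx2 was the exception) the 3 highest values were those of Ctl MSC 1, MSC-TPr 2 and MSC-TPr 3, which was so for 23% of all genes tested.

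The libraries numbered 1 were set side by side, with 1 library per label and no replicate check. MSC-TPr 1 was lower than Ctl MSC 1 in 5 of the 6 tested members, where 50.1% of all genes tested were lower. The log2 differences were −1.96 for Dlx5, −1.74 for Phex, −1.12 for Spp1, −0.83 for Msx2, −0.45 for Alpl and 0.06 for Runx2. The rise of Spp1, Msx2, Alpl and Dlx5 in the libraries numbered 2 and 3 was thus absent from this pair.

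**Figure D3:**
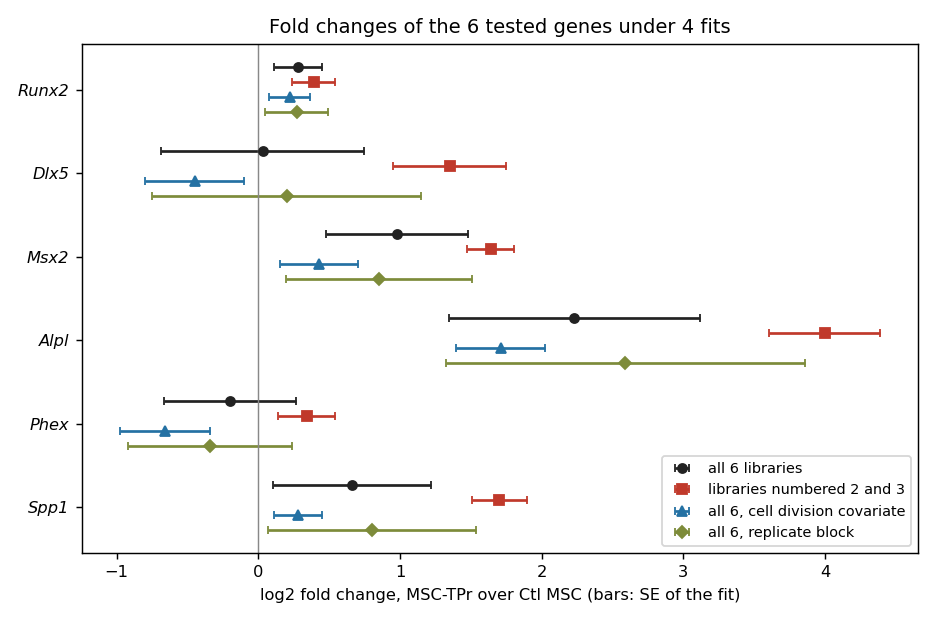
Log2 fold change of MSC-TPr over Ctl MSC for the 6 tested members, with bars for the SE, in the fit over all 6 libraries, the fit on the libraries numbered 2 and 3, and the fits with cell division as a covariate or the replicate number as a block. Alpl is positive in all 4 fits, from 1.71 to 4.0, whereas Dlx5 and Phex lie on either side of 0.

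Other osteoblast genes were described with a list of 41 genes outside the 10, of which 28 were tested over all 6 libraries. None passed with edgeR (0.426% of all genes did), and 3 had an unadjusted p under 0.05, as did 1801 of the 11974 genes tested. Their median log2 fold change was 0.16, beside 0.01 over all genes tested. DESeq2 called 1 of the 39 genes it tested, Smpd3, beside 4.06% of all genes. Smpd3, a sphingomyelinase needed for bone mineralization, gave 1.91 (SE 0.627, DESeq2 adjusted p = 0.0454). Smpd3 measured 7.67, 2.56 and 2.54 CPM in Ctl MSC 1, 2 and 3, against 7.09, 14.2 and 26.4 CPM for MSC-TPr 1, 2 and 3, lowest and highest in the same libraries as Alpl.

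Without the libraries numbered 1, 12 of 29 tested genes of the list rose and 2 fell (edgeR), where 40.0% of all genes passed, 20.6% higher and 19.4% lower, so that these counts and those by role below stand beside a high background. The median log2 fold change was 0.32, beside 0.00 over all genes. The matrix genes accounted for 6 of the calls, all higher in MSC-TPr (20.6% of all genes), of 9 tested. Col1a1, the main chain of bone collagen, rose by 2.94 (SE 0.385, edgeR adjusted p = 0.00234) and had 660 and 639 CPM in Ctl MSC 2 and 3, against 3052 and 6916 CPM for MSC-TPr 2 and 3. Its values in the libraries numbered 1 were in the reverse order, at 3250 CPM for Ctl MSC 1 against 354 CPM for MSC-TPr 1. Sparc (osteonectin), a collagen-binding matrix protein, rose by 1.44, Col1a2 by 1.38, the matricellular protein Postn by 1.56, the osteoblast cadherin Cdh11 by 0.97 and the osteocyte membrane glycoprotein Pdpn by 1.64 (edgeR adjusted p from 0.000782 to 0.0156). In the libraries numbered 1 these genes were also lower in MSC-TPr, with log2 differences from −5.93 for Postn to −0.28 for Cdh11, as were 20 of the 28 genes, beside 50.1% of all genes. Per exon length the most abundant genes of the list were Sparc at 283 to 1046 CPM per kb, Col1a1 at 54.0 to 1054 and Atf4, a regulator of osteoblast protein synthesis, at 267 to 397. Atf4 did not pass in either fit, with log2 fold changes of 0.14 and −0.01.

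Of the mineralization genes, 4 rose and 1 fell among 8 tested without the libraries numbered 1, beside 20.6% and 19.4% of all genes. Enpp1, which makes the mineralization inhibitor pyrophosphate, rose by 3.44, the pyrophosphate exporter gene Ank by 1.41, Smpd3 by 3.0 and the calcification inhibitor Mgp by 1.95 (edgeR adjusted p from 0.000492 to 0.00151). The genes that rose thus include both Alpl, which breaks pyrophosphate down, and genes that supply it. Enpp1 measured 77.8, 6.84 and 7.12 CPM in Ctl MSC 1, 2 and 3, against 12.7, 55.8 and 95.05 CPM for MSC-TPr 1, 2 and 3. Phospho1, a phosphatase of matrix vesicles, fell by 1.35 on the log2 scale (edgeR adjusted p = 0.0273) and was highest in MSC-TPr 1 at 3.16 CPM. That fall rests on 19 and 23 reads in Ctl MSC 2 and 3 against 8 and 9 in MSC-TPr 2 and 3. DESeq2 did not call it on the same libraries (DESeq2 adjusted p = 0.195).

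Among regulators, Tcf7, a Wnt-responsive factor, rose by 1.14 (edgeR adjusted p = 0.0220), and Zfp521, a zinc-finger antagonist of Runx2, fell by 1.97 (edgeR adjusted p = 0.00270), of 10 tested without the libraries numbered 1. Zfp521 measured 13.1, 29.1 and 29.5 CPM in Ctl MSC 1, 2 and 3, against 12.9, 5.21 and 9.51 CPM for MSC-TPr 1, 2 and 3. With TMM scaling its MSC-TPr values all lay below its Ctl MSC values, at the closest by 12.9 against 13.1 CPM, with a log2 ratio of −1.38 over all 6 libraries that did not pass (SE 0.444, edgeR adjusted p = 0.235). Cbfb, the partner subunit of Runx2, did not overlap between the labels, at 151 to 161 CPM over the Ctl MSC libraries and 162 to 189 CPM over those of MSC-TPr (edgeR adjusted p = 0.576). In all, 4 of the 28 genes did not overlap (Msx1, Cbfb, Zfp521 and Ogn), 2 in each direction, where 22.6% of all genes tested did not.

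Tnfrsf11b (osteoprotegerin), the decoy that binds RANKL, had a mean of 21.6 CPM per kb of exons, against 0.124 for Tnfsf11. It measured 180, 19.5 and 20.3 CPM in Ctl MSC 1, 2 and 3, against 10.6, 62.6 and 72.6 CPM for MSC-TPr 1, 2 and 3. Ctl MSC 1 was highest and MSC-TPr 1 lowest, as for Dlx5. It rose by 1.77 without the libraries numbered 1 (SE 0.133, edgeR adjusted p = 0.000374) while the log2 ratio over all 6 libraries was −0.59 (SE 1.05, edgeR adjusted p = 0.836). With the cell division covariate, 7 of the 28 genes passed (12.1% of all genes), with Smpd3 higher in MSC-TPr and Zfp521, Prrx1, Mgp, Omd, Ogn and Tnfrsf11b lower, so that Mgp and Tnfrsf11b passed in opposite directions in these fits. Of 8 osteoclast genes, Calcr had no read and Acp5 and Dcstamp reached at most 0.165 and 0.0592 CPM, while Atp6v0d2, a proton pump subunit of osteoclasts, lay at 1.18 to 5.62 CPM. The list summed to 65.1 to 128 CPM over the Ctl MSC libraries and 29.7 to 60.1 CPM over those of MSC-TPr, most of it Ctsk, which stromal cells also express.

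**Figure D4:**
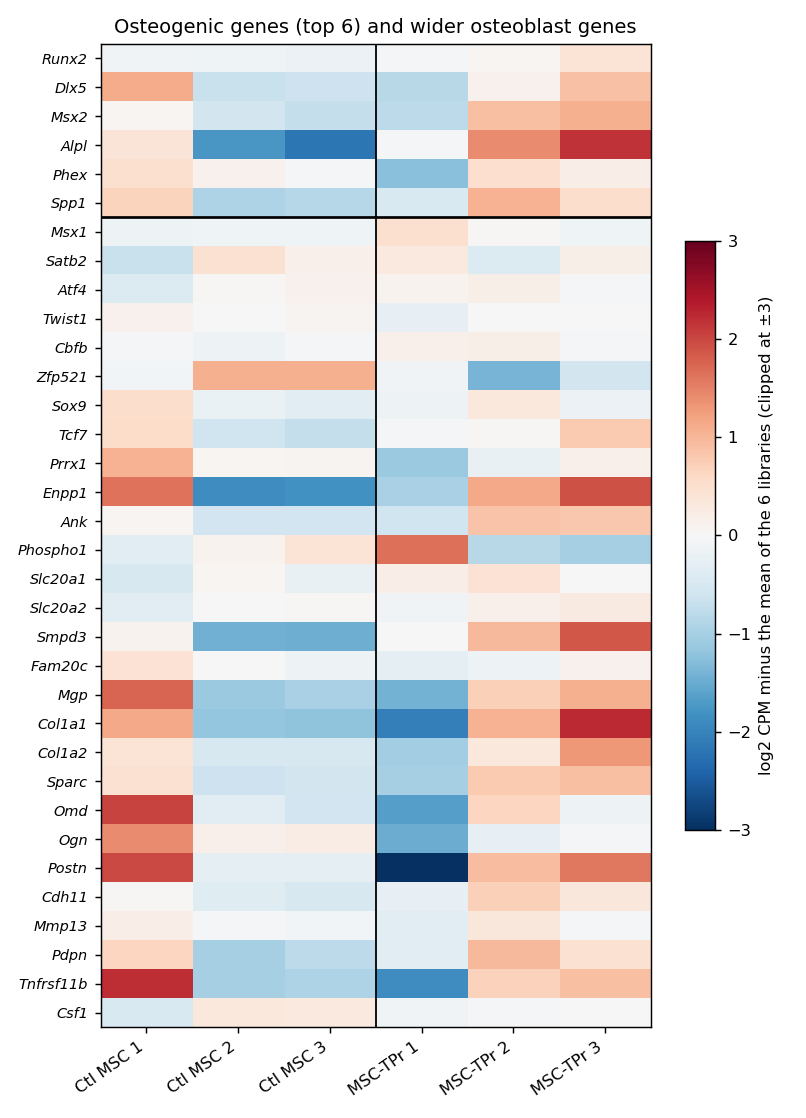
Log2 CPM minus the mean of the 6 libraries, for the 6 tested members (above the line) and the 28 tested genes of the wider osteoblast list, with libraries in columns by label and colour from blue (lower) to red (higher), clipped at 3 in either direction. In 5 of the 6 members and 13 of the 28 other genes, the 3 highest values are in Ctl MSC 1, MSC-TPr 2 and MSC-TPr 3.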

How the data were processed

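Counts of 6 RNA-seq libraries were used, 3 per label, each library as 1 replicate. Stranded polyA libraries were read in pairs. Alignment by the authors was to mm10, and the deposited values are their Htseq-count gene counts, not normalized. Their processing notes name CASAVA 1.8.2, Trimmomatic 0.35 and TopHat2 2.1.0. The annotation and the strand setting of the counting are not given in the sources used here. The 5 summary lines of the table (no gene, ambiguous or multiply aligned) were left out and held 13.8% to 20.8% of the reads listed per library.

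The edgeR 4.0.16 quasi-likelihood test (R 4.3.3) was fitted with the label as its only term after TMM scaling and filterByExpr, and p-values were adjusted by Benjamini-Hochberg over 11974 genes. Called genes had an adjusted p under 0.05 and an absolute log2 ratio of 0.5 or more, the thresholds of the study. Standard errors are the log2 ratio divided by the square root of F. DESeq2 1.42.0 was run as an alternative, and both were tested on simulated counts. Centred log2 CPM used a prior count of 2. Symbols were matched to GENCODE M21 (GRCm38), 21777 directly, 1277 by an older symbol and 366 not at all. Other alternatives were RLE and upper quartile scaling, other filters, the replicate number as a block, cell division as a covariate, leaving out each library, and leaving out both libraries numbered 1. The last was applied with DESeq2 only after the data were seen.

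The members and the lists (wider osteoblast, osteoclast, macrophage and leukocyte, T cell, endothelial, adipocyte, chondrocyte, MSC surface, cell division) were chosen with earlier results of these data known. All members are named, as are genes of the wider list called in either edgeR fit, its 3 most abundant per length, the 3 genes most like the member with the largest SD of log2 CPM, and the most abundant gene of each marker list. 1 gene that the rule names is not reported here. Smpd3 was also called by DESeq2. Genes named outside this rule (Dlx6, Dspp, Dmp1, Mepe, Bglap2, Bglap3, Msx1, Cbfb, Ogn, Prrx1, Omd and single markers) were chosen after their values were seen.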

Additional observations from a re-analysis of the deposited data

How the results depend on the processing

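The count of called members was 0 with edgeR over all 6 libraries, and 0 with any single library left out. Over all 6 libraries 1 of the 6 tested had an unadjusted edgeR p under 0.05, as did 1801 of the 11974 genes tested. The count of called members was 4 on the libraries numbered 2 and 3 (3 with DESeq2, added after seeing the data) and 1, Alpl, with the cell division covariate. For the wider osteoblast list, the counts were 0 over all 6 libraries and with any single library left out, 1 with DESeq2, 14 on the libraries numbered 2 and 3 (16 with DESeq2) and 7 with the covariate. The 16 DESeq2 calls, beside 27.9% of all genes, left out Phospho1. They held Dmp1 and Omd (higher in MSC-TPr) and Bglap2 (lower), which edgeR did not call. Dmp1 had at most 12 reads and Bglap2 at most 8 reads in any library. Of all genes, 51 were called over all 6 libraries, 683 with DESeq2, 31 with at least 10 counts in every library, 4854 on the libraries numbered 2 and 3 (4564 with DESeq2), 1444 with the covariate, and 0 to 108 with 1 library left out (108 without Ctl MSC 1, 1 without MSC-TPr 2 and 0 without Ctl MSC 2, Ctl MSC 3 or MSC-TPr 3). Members without overlap numbered 1 with TMM, 0 with upper quartile scaling and 6 on the libraries numbered 2 and 3. Dlx5 changed sign with upper quartile scaling (−0.03) and the covariate (−0.45), and ranged from −0.52 to 0.97 with 1 library left out. Phex changed sign on the libraries numbered 2 and 3 (0.34) and ranged from −0.55 to 0.17. Runx2, Msx2, Alpl and Spp1 kept a positive sign in every alternative run, with ranges of 0.15 to 0.37, 0.67 to 1.37, 1.65 to 3.59 and 0.30 to 1.39 with 1 library left out, and the lowest Spp1 value came without MSC-TPr 2. With at least 10 counts required in every library, Alpl was not tested and has no value. The highest Alpl and Spp1 values came without Ctl MSC 1. The cause of these shifts was not tested.

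With the replicate number as a block, 0 members, 0 wider genes and 0 genes in all were called by edgeR. After each label was centred on its own mean, libraries sharing the number 1, 2 or 3 correlated at −0.765, −0.594 and −0.604 across 11974 genes. Centred values within a label cancel out when added, so these correlations depend on one another. They gave no sign of pairing by number, but cannot show whether the libraries numbered 2 or 3 were paired. Alpl gave 2.59 with the block (edgeR adjusted p = 0.816). At this depth, a gene with 0 reads in a library may still lie below 0.139 to 0.181 CPM.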

Other observations

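Genes of the other lineages that MSCs can enter were measured in the same libraries. Of 7 adipocyte genes, 4 had at least 1 CPM in every library, and the list summed to 235 to 331 CPM over the Ctl MSC libraries and 266 to 312 CPM over those of MSC-TPr. Lpl (lipoprotein lipase) was the most abundant, at 114 to 147 CPM over the Ctl MSC libraries and 171 to 278 CPM over those of MSC-TPr. Pparg, the adipocyte master regulator, measured 11.2 to 78.7 CPM, Cebpa 6.39 to 12.0 CPM and Fabp4 13.2 to 126 CPM. Adipoq, a product of mature adipocytes, reached at most 0.121 CPM, Plin1 0.0604 CPM and Cidec 0.118 CPM.

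Of 7 chondrocyte genes, 1 had at least 1 CPM in every library, Col10a1 (hypertrophic cartilage collagen) at 1.33 to 8.52 CPM. The list summed to 4.86 to 19.3 CPM over the Ctl MSC libraries and 1.99 to 8.999 CPM over those of MSC-TPr, and Acan, the cartilage proteoglycan, reached at most 0.139 CPM. Col2a1, the main cartilage collagen, ranged from 0.0554 to 9.91 CPM and Matn3 (matrilin 3) from 0.110 to 2.60 CPM. The 6 endothelial genes summed to 0.785 to 3.09 CPM over the Ctl MSC libraries and 1.67 to 3.32 CPM over those of MSC-TPr, with Kdr the highest at 0.544 to 2.99 CPM.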
